A study of Mus musculus with 8 samples.

Results

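Endothelial cells line the blood vessels and the lymphatic vessels of the skin, and both kinds were sought among single cells of dorsal skin from female BALB/c mice. Cells were selected on measured values: a cell had to carry a UMI (a counted RNA molecule) for at least 3 of 9 genes (Pecam1, Cdh5, Kdr, Flt1, Eng, Emcn, Plvap, Cldn5 and Egfl7), no UMI for the leukocyte gene Ptprc, and less than 1% of its UMIs from Col1a1, Col1a2 and Col3a1. This gave 143 endothelial cells of 11118 cells that passed the filter on quality (between 500 and 4000 genes, no more than 20000 UMIs, and mitochondrial UMIs not above 10%), out of 26231 barcodes in the files. Of these, 71 had a UMI for Prox1, or UMIs for both Ccl21a and Lyve1, and are called lymphatic endothelial cells. The other 72 are called blood endothelial cells, although no marker of blood vessels was required of them. They include 4 cells with a Ccl21a UMI but none for Prox1 or Lyve1, and 1 of these 4 had a Mmrn1 UMI.

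The mice of both groups were 14 to 16 weeks old, and no genotype other than the strain is labelled. Biopsies of 4 mm were digested to single cells and, as the study's methods state, sorted as DAPI-negative, that is, living. The skin was injected with PBMCsec, the secretome of irradiated human peripheral blood mononuclear cells, in 4 samples and with vehicle in 4 samples, with 1 library each. The labels used here name neither a wound, a time point nor the vehicle solution. The endothelial cells numbered 15, 10, 20 and 27 in PBMCsec libraries 1 to 4 and 5, 15, 26 and 25 in vehicle libraries 1 to 4. Each had between 713 and 14731 UMIs, with a median of 5926, against a median of 7466 in the other cells kept. No member shared its barcode with a member of another library. No doublet caller was run.

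Blood endothelial cells differ along the vessel tree. Arterial cells use Notch signalling, capillary cells take up lipids, and cells of post-capillary veins carry the adhesion molecules that let leukocytes leave the blood. Lymphatic endothelial cells take up tissue fluid and guide leukocytes into the lymph, and their identity depends on the transcription factor Prox1 and on the VEGF-C receptor encoded by Flt4.

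The label held for most, not all, of the selected cells. Of the 143 cells, 118 had 6 to 9 of the 9 markers, and these cells had a median of 6 of 12 further endothelial genes that the rule did not use (Tie1, Tek, Ptprb, Esam, Icam2, Sox7, Sox18, Erg, Mmrn2, Podxl, Bcl6b and Nos3, a set put together after the values were seen). The 14 cells just inside the limit, with 3 markers, had a median of 1 of the 12, and 12 of these 14 had fewer than 2. Just outside, the 73 cells with 2 markers that met the other conditions had a median of 0 of the 12. Beyond the rule, most cells with 3 markers thus carried little that marks them as endothelial, although 1 of them had 8 of the 12 genes and 3 were lymphatic by the rule, and 129 cells remain when 4 markers are required.

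**Figure D1:**
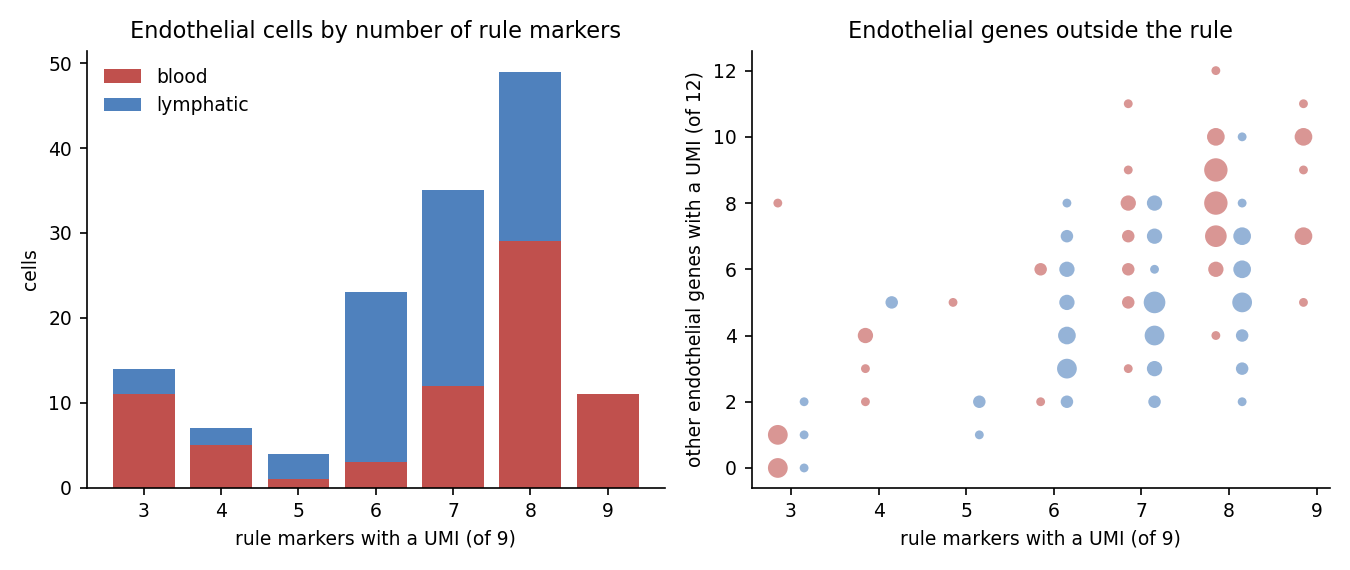
Left, number of endothelial cells by the number of rule markers with a UMI, split into blood and lymphatic cells. Right, the same cells by how many of 12 further endothelial genes had a UMI, with the area of a point in proportion to the number of cells and red and blue points for blood and lymphatic cells. The 118 cells with 6 to 9 markers carry a median of 6 of the further genes, and most of the 14 cells with 3 markers carry 0 or 1.

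The rule's own genes are given as a description. Egfl7, a secreted angiogenic factor, was found in 90.2% of the endothelial cells, Pecam1, the junctional molecule CD31, in 86.7%, and Cdh5, or VE-cadherin, in 86.0%. Among the 2194 cells with a Ptprc UMI, which should lack most of these genes and had a median of 3911 UMIs, Cdh5 was found in 0.36%, Emcn in 0.05% and Egfl7 in 0.50%. Pecam1, which leukocytes also use, was found in 9.02% of them. Blood and lymphatic cells carried the markers unevenly. Cldn5, the tight junction protein claudin-5, was found in 100% of lymphatic and 38.9% of blood cells, whereas Plvap, the protein of fenestral diaphragms, stood at 2573 CPM (UMI counts scaled to a library total of 1e+06) in the pooled blood cells and 340.3 CPM in the pooled lymphatic cells. Flt1, encoding VEGFR1, was found in 79.2% of blood cells and in 0 of 71 lymphatic cells, which allows a share of up to 4.23% of cells with a UMI, a limit that holds for every gene given below at 0 of these cells.

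Beyond the markers, 25 genes with the highest ratio of CPM in endothelial cells to CPM in the other cells (means over libraries, 10 CPM added to each) describe the cells. Several belong to the machinery shared by all vessels. Sox18, a transcription factor of vessel development, was found in 76.2% of endothelial and 0.34% of other cells. Tie1, an orphan receptor that modulates angiopoietin signalling, was found in 67.8% and 0.20%, and Ptprb, the phosphatase VE-PTP that restrains Tie2 and VE-cadherin, in 70.6% and 0.25%. Adgrf5 and Adgrl4, both adhesion G protein-coupled receptors, were found in 76.2% and 55.2% of endothelial cells. Others came from 1 kind of vessel. Fabp4, a fatty acid carrier of capillaries and the gene with the highest ratio (231), came from blood cells, whereas Mmrn1, Reln, Flt4, Tc2n and Stab1 came mostly from lymphatic cells. These ratios carry no test, since the cells were selected on genes that move with them.

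Promoters of 3 genes are shown because Tie1 and Kdr mark both kinds of vessel here and Ccl21a the lymphatic one. The sequences are from RefSeq, build GRCm38.p6, cover 300 bases around each gene's start and all lie on the minus strand of their chromosome: Tie1 at chr4:118489800-118490099, Kdr at chr5:75978406-75978705 and Ccl21a at chr4:42773942-42774241. Capitals mark matches to CAGGAA or CCGGAA on either strand, forms of the site of ETS factors, a family that includes the endothelial factors Erg and Fli1. The motifs share the letters GGAA.
Tie1: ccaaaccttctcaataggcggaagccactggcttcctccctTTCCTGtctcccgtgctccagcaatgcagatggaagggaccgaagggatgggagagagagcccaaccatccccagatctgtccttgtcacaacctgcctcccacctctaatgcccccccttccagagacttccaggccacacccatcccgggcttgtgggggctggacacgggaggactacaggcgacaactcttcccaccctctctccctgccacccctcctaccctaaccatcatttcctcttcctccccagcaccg
Kdr: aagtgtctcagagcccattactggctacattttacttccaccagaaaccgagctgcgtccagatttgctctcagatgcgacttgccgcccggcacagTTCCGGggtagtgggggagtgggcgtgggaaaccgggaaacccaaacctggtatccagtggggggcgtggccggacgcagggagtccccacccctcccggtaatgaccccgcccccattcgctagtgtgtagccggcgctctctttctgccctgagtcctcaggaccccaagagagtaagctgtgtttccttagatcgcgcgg
Ccl21a: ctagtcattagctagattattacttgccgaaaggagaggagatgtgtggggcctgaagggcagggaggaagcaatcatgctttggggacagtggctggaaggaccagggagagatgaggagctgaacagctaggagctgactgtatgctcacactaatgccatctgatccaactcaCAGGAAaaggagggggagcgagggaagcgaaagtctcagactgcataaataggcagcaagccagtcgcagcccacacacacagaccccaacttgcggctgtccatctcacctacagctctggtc
A match was present in 10 of the 15 promoters listed for 13 of the 25 genes above, against 41.4% of all 32851 promoters in the table. It was present in 5 of 8 promoters of 6 rule markers, in 4 of 10 promoters of genes higher in lymphatic cells and in 2 of 9 promoters of genes higher in blood cells. A match is a description of the letters in this window. The ETS genes themselves were detected: Ets1 in 76.9% of the endothelial and 21.2% of the other cells, Fli1 in 51.0% and 6.9%, and Erg in 23.1% and 0.1%.

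Lymphatic endothelial cells were set apart by the genes that chose them. Ccl21a (chr4:42772860-42773993), the chemokine that draws dendritic cells and T cells into lymphatic vessels, was the most abundant of these, at 31268, 45539, 34120 and 36355 CPM in the lymphatic cells of PBMCsec libraries 1 to 4 and 30029, 32773, 28795 and 39248 CPM in those of vehicle libraries 1 to 4. These values lie close together, and both groups overlap. Ccl21a has near-identical copies in the mouse genome, and how reads were shared among them is uncertain. Prox1 was found in 95.8%, Ccl21a in 91.5% and the hyaluronan receptor Lyve1 in 74.6% of lymphatic cells, and 50 of the 71 cells carried all 3. In Ptprc-positive cells the shares were 0.09%, 0.68% and 0.91%.

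Genes that the rule did not use were found with these. Mmrn1, a matrix protein of platelets and lymphatic vessels, stood at 3000, 3759, 3425 and 3525 CPM in the lymphatic cells of PBMCsec libraries 1 to 4 and at 3989, 4269, 4013 and 2352 CPM in those of vehicle libraries 1 to 4. In blood cells it was found in 1 library only, PBMCsec 3, at 214.0 CPM. Reln, the glycoprotein reelin, was found in 85.9% of lymphatic and 2.78% of blood cells, Flt4 in 94.4% and 11.1%, and Fgl2, a fibrinogen-like protein, in 95.8% and 12.5%. Other genes of this side were Fxyd6, Cp (ceruloplasmin), Maf, a transcription factor, Ntn1, a guidance cue, and Prelp and Abi3bp of the matrix, with pooled ratios between 7.31 (Scn3a) and 42.0 (Mmrn1) after 50 CPM was added to both sides. Of the listed lymphatic genes, Pdpn, or podoplanin, was found in 77.5% of lymphatic cells but also in 23.0% of the non-endothelial cells, and Stab2 had no UMI in any of the 143 cells.

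The 18 lymphatic cells without a Lyve1 UMI differed from the 53 with one. They held less Ccl21a (20873 against 37957 CPM), Mmrn1 (1804 against 4065 CPM) and Reln (286 against 1330 CPM), and Reln was found in 55.6% against 96.2% of the cells. Foxc2, a factor needed for lymphatic valves, was found in 8 of 18 cells without Lyve1 and 13 of 53 with it, and Prox1 stood at 1163 and 861 CPM. Both sets held cells of all 8 libraries, with median depths of 4781 and 6147 UMIs. The values are pooled over cells and were not tested, since Lyve1 chose the sets. The rule also bears on the Prox1 and Ccl21a values. A lymphatic cell without Lyve1 had to carry Prox1, whereas a cell with Lyve1 could enter through Ccl21a, as 3 cells without Prox1 did.

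**Figure D2:**
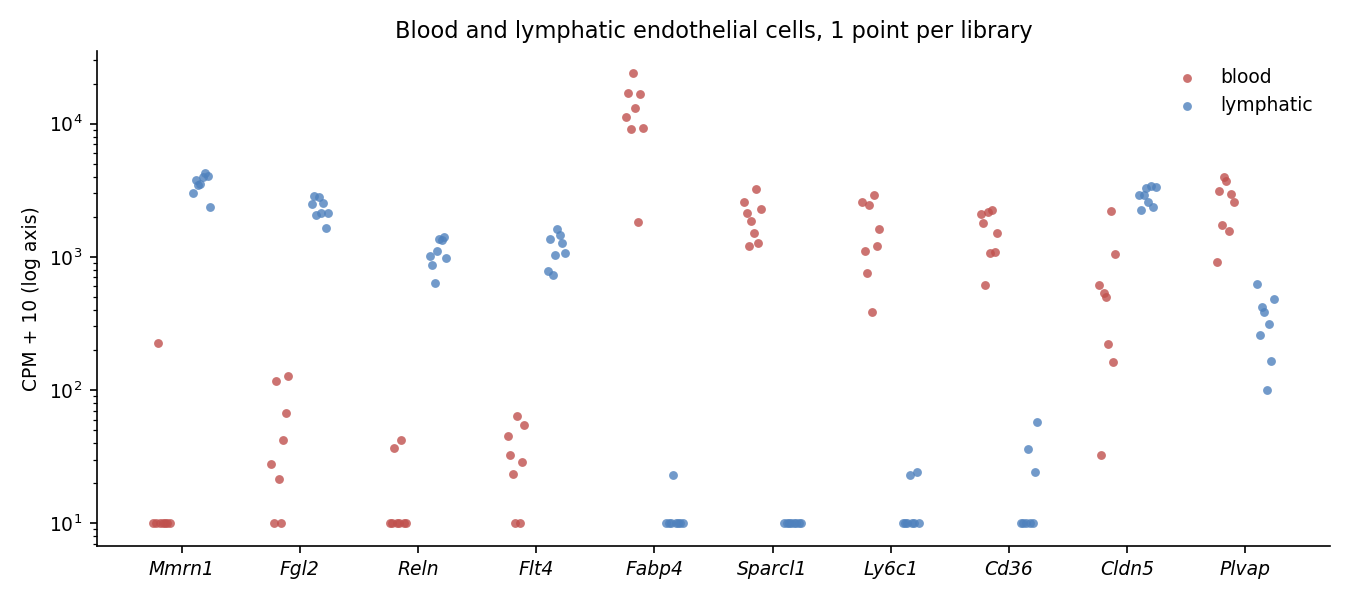
CPM plus 10 on a log axis for 10 genes, with 1 point per library for blood endothelial cells (red) and lymphatic endothelial cells (blue). Mmrn1, Fgl2, Reln and Flt4 lie higher in lymphatic cells in all 8 libraries, and Fabp4, Sparcl1, Ly6c1, Cd36 and Plvap lie higher in blood cells in all 8.

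The 15 genes with the highest ratio of blood to lymphatic cells were Fabp4, Sparcl1, Ly6c1, Cd36, 8430408G22Rik, Scarb1, Igfbp7, Zfp36, Col15a1, Sparc, Hspa1a, Ly6a, Fabp5, Vwf and Gadd45g. They hold genes of lipid handling and of the matrix as well as the stress-responsive genes Zfp36, Hspa1a and Gadd45g. Fabp4 (chr3:10204088-10208576) stood at 11239, 16937, 9084 and 23899 CPM in the blood cells of PBMCsec libraries 1 to 4 and at 13051, 1819, 16749 and 9197 CPM in those of vehicle libraries 1 to 4. Vehicle library 2, with 5 blood cells, was the lowest, and the groups overlap. Cd36, the fatty acid translocase, was found in 63.9% of blood and 5.63% of lymphatic cells, and Scarb1, the receptor for high-density lipoprotein, in 76.4% and 2.82%. Gpihbp1, which carries lipoprotein lipase to the capillary lumen, was found in 45.8% of blood cells and also in 42.3% of lymphatic cells, at 606 and 214 CPM. In the vessel wall, Col15a1 was found in 63.9% of blood cells and Sparcl1 in 88.9%, and both in 0 of 71 lymphatic cells, whereas Lama4, a laminin chain, stood higher in lymphatic cells (613 against 152 CPM). The collagen IV genes Col4a1 and Col4a2 were found in 88.9% and 77.8% of blood cells and in 71.8% and 64.8% of lymphatic cells.

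Among blood cells, capillary genes were the most widespread. With 7 capillary markers (Cd36, Gpihbp1, Rgcc, Car4, Cd300lg, Btnl9 and Meox2), 41 of 72 blood cells carried at least 3. With 9 arterial markers (Gja4, Gja5, Hey1, Sox17, Efnb2, Bmx, Dll4, Sema3g and Fbln5) 18 cells did so, and with 7 venous markers (Nr2f2, Ephb4, Selp, Sele, Ackr1, Vwf and Vcam1) 18 cells. The sets overlapped: 10 cells were both venous and capillary by this count, 11 both arterial and capillary, 1 both arterial and venous, and 17 reached 3 in none. Arterial and venous markers are not specific to blood vessels, since 29 of 71 lymphatic cells carried at least 3 of the arterial genes, among them Fbln5 in 84.5% and Efnb2 in 57.7%, and the vein and lymphatic factor Nr2f2 was found in 94.4% of lymphatic and 30.6% of blood cells.

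Pairs of single genes were also counted in the blood cells. Selp, or P-selectin, which tethers leukocytes, was found in 15 blood cells and Ackr1, the chemokine receptor of venules, in 14, and 13 cells had both. Gja5, the arterial connexin 40, was found in 9 cells and Sema3g in 16, and 8 cells had both. None of the cells with Gja5 or Sema3g had Selp or Ackr1, but the arterial factor Sox17, found in 31 cells, was present in 7 of the 15 cells with Selp and 6 of the 14 with Ackr1. Gpihbp1 and Cd36 were found together in 30 of the 33 cells with Gpihbp1. Vwf, which binds platelets, was found in 33 blood cells, 14 of them with Selp and 10 with Gpihbp1, and in 0 lymphatic cells. These are counts of cells pooled over 8 libraries, and depth moved with them: the median was 3240.5 UMIs in cells that were capillary alone by the count above and 10176 UMIs in those both venous and capillary.

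The receptors of VEGF were divided between the vessels. Kdr, encoding VEGFR2, a marker of the rule, was found in 65.3% of blood and 90.1% of lymphatic cells. Nrp1, the co-receptor of VEGF-A, was found in 70.8% of blood and 1.41% of lymphatic cells, and Nrp2, which binds VEGF-C, in 54.2% and 76.1%. The ligands were scarce in these cells: Vegfa was found in 7.0%, Vegfc in 4.2% and Vegfd in 2.8% of endothelial cells, and Vegfa and Vegfd in 16.4% and 13.4% of the other cells. In the angiopoietin system, Tek, encoding the receptor Tie2, was found in 59.7% of blood and 35.2% of lymphatic cells, and Angpt2, a ligand made by the endothelium, in 22.2% and 45.1%. Of the TGF-β family, the endothelial receptor Acvrl1 was found in 45.8% of blood and 26.8% of lymphatic cells, and Tgfbr2 in 59.7% and 95.8%. The Notch receptor Notch4 was found in 27.8% of blood and 0 of 71 lymphatic cells, whereas Notch1 was found in 59.7% and 78.9%.

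**Figure D3:**
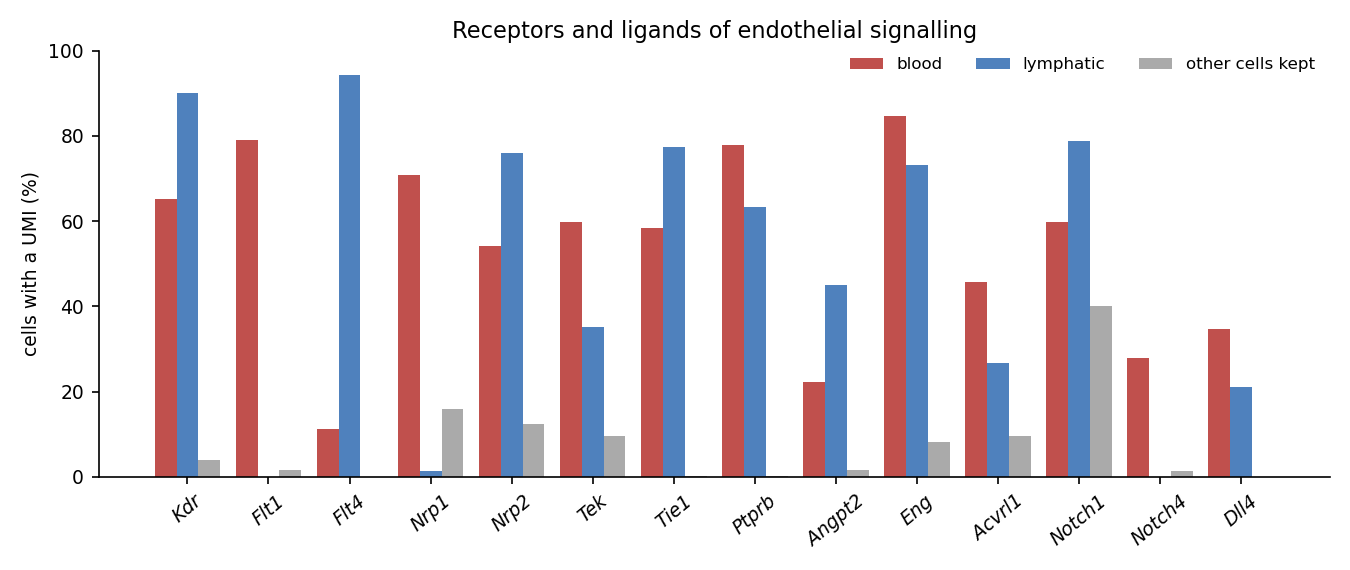
Percent of cells with a UMI for each of 14 receptors and ligands, in 72 blood endothelial cells (red), 71 lymphatic endothelial cells (blue) and 10975 other cells kept (grey), pooled over 8 libraries. Flt1, Nrp1 and Notch4 are found almost wholly in blood cells and Flt4 mostly in lymphatic cells, while Kdr, Tie1 and Eng are found in both.

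Adhesion molecules of activated endothelium were found in part of the cells. Icam1 was found in 37.5% of blood and 29.6% of lymphatic cells. Selp was found in 20.8%, Sele, or E-selectin, in 15.3% and Vcam1 in 9.7% of blood cells, whereas the constitutive molecule Icam2 was found in 62.5%. Madcam1 had no UMI. The chemokine Cxcl12 stood at 1032 CPM in blood cells and 44.3 CPM in lymphatic cells. Tip cell and sprouting genes varied, with Apln in 6.9% and Esm1 in 2.8% of blood cells, but Aplnr in 41.7% and Dll4 in 34.7%. None of the 143 endothelial cells carried at least 3 of 6 cell cycle genes, which allows a share of up to 2.10%, whereas 505 of the 10975 other cells did (4.60%). Mki67 was found in 3 endothelial cells. MHC class I genes were found in nearly all, with H2-D1 in 99.3% and B2m in 98.6%, while the class II gene H2-Ab1 was found in 21%, close to the 21.6% of the other cells.

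Markers of other cell types made up a small part of the endothelial UMIs but were not absent. Of the lists of other cell types, Ptprc (by the rule), Cd3e, Cd3g, Cd52, Adipoq, Plin1, Dct, Cspg4 and Ppbp had no UMI in the 143 cells. The 10 pericyte and smooth muscle genes made up 0.109% of the endothelial UMIs against 0.0574% in the other cells, ranging from 472 to 2816 CPM in PBMCsec and from 132 to 1549 CPM in vehicle libraries. In blood cells alone they stood at 5072, 648, 1833 and 2369 CPM in PBMCsec libraries 1 to 4. In vehicle libraries 1 to 4 they stood at 373, 162, 927 and 2432 CPM in blood cells. Rgs5, of this list, was found in 12.5% of blood and 0% of lymphatic cells. The 6 fibroblast genes ranged from 33.7 to 2937 CPM in PBMCsec and 37.7 to 201 CPM in vehicle libraries, and the 7 keratinocyte genes from 67.5 to 225 CPM and 94.1 to 1797 CPM. The share of these in the results between groups was not tested beyond leaving out 3 cells with at least 1% of pericyte genes or keratins.

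The design asks whether PBMCsec changed how many endothelial cells were recovered. Endothelial cells made up 1.39, 1.89, 0.789 and 1.69% of the cells kept in PBMCsec libraries 1 to 4 and 1.57, 3.67, 0.896 and 1.43% in vehicle libraries 1 to 4. Vehicle library 2 stood above all others, and the groups overlapped. The means were 1.44% ± 0.480 (SD, n = 4) and 1.89% ± 1.22 (SD, n = 4), a difference of -0.453 percentage points that did not pass a two-sided exact permutation test (p = 0.686, the smallest possible being 0.0286). Without vehicle library 2 the difference was 0.139 percentage points. In such shares the number of cells in the tissue and their recovery cannot be told apart.

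Lymphatic cells made up 46.7, 40, 40 and 51.9% of the endothelial cells in PBMCsec libraries 1 to 4 and 66.7, 61.5 and 36% in vehicle libraries 2, 3 and 4. Vehicle library 1, with 5 endothelial cells of which 3 were lymphatic, was left out because at least 10 were required. Vehicle library 4 was the lowest of all and the other vehicle libraries were higher than every PBMCsec library. The means were 44.6% ± 5.75 (SD, n = 4) and 54.7% ± 16.4 (SD, n = 3), and the difference of -10.1 percentage points did not pass the exact permutation test (two-sided, p = 0.343, the smallest possible being 0.0286). The exact 95% binomial intervals of single libraries, which cover counting error only, were wide, for example 21.3 to 73.4% in PBMCsec library 1. Without vehicle library 4 the difference was -19.5 percentage points, with p = 0.0667, the smallest that this exact test can give.

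**Figure D4:**
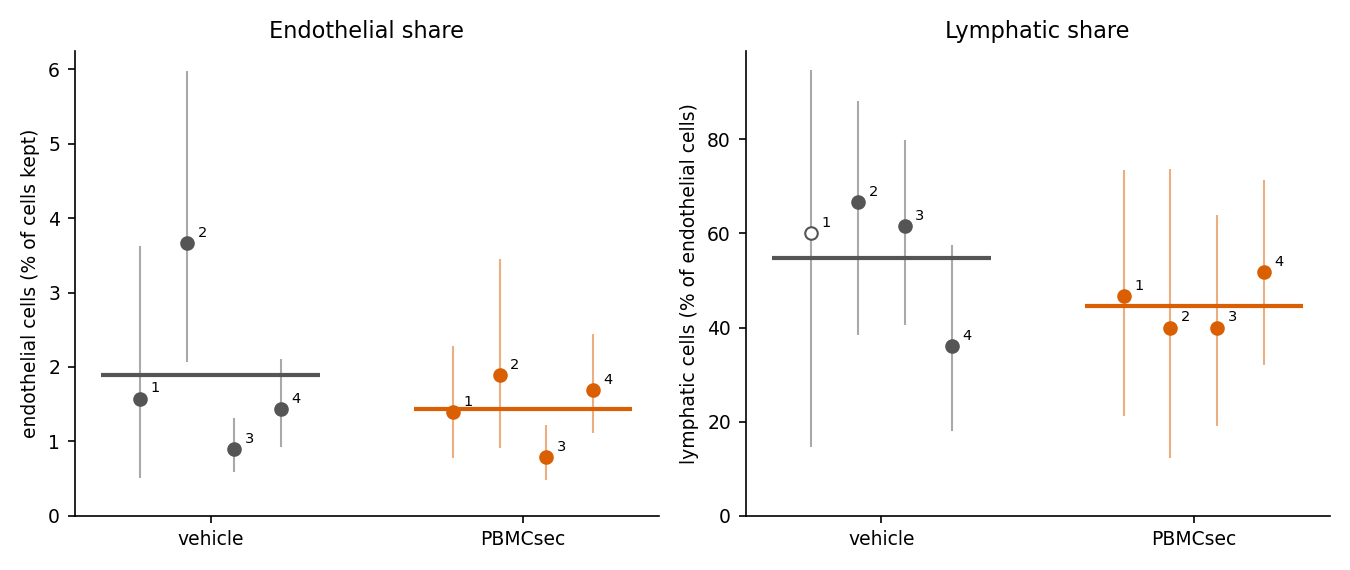
Share of endothelial cells among cells kept (left) and of lymphatic cells among endothelial cells (right), 1 point per library with its number, thin bars for exact 95% binomial intervals and thick lines for group means. The open point is vehicle library 1, with 5 endothelial cells, which is not in the mean or the test of the lymphatic share. The groups overlap in both panels.

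The design also asks which genes differed between PBMCsec and vehicle within endothelial cells. UMIs were summed per library and compared over 4 PBMCsec and 3 vehicle libraries (68263 to 127392 UMIs in the genes tested) with edgeR's quasi-likelihood test. Of 2342 genes, 0 (percent called, 0) reached an adjusted p below 0.05. At an unadjusted p below 0.05, 46 genes were higher and 37 lower after PBMCsec, together 3.54% of the genes, and DESeq2 likewise called 0 genes, with 30 higher and 12 lower at an unadjusted p below 0.05. The libraries of both groups did not overlap for 111 genes (4.74%). The values below are therefore given as not called. They are CPM over the genes tested after TMM normalization, and each list contains 0 called genes.

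The gene with the smallest adjusted p in edgeR was Ucp2 (chr7:100493337-100502020), an uncoupling protein of the mitochondrial inner membrane. It stood at 160, 120, 113 and 154 CPM in PBMCsec libraries 1 to 4 and at 380, 392 and 478 CPM in vehicle libraries 2 to 4. Every PBMCsec library lay below every vehicle library (log2 fold change -1.59 ± 0.26 (SE), adjusted p = 0.138). With at least 4 markers, which leaves out the 14 cells with 3 markers, the log2 difference was -0.91 (adjusted p = 0.998 with edgeR). DESeq2 gave adjusted p = 0.130 for Ucp2 and 0.104 for Hspb1 and Hspa1b. In blood cells alone the log2 difference was -1.79, and the gene was at similar pooled levels in blood (223 CPM) and lymphatic cells (161 CPM). Within lymphatic cells the groups overlapped, and the gene has no test there. Lymphatic cells held 138, 90.6, 21.7 and 117 CPM in PBMCsec libraries 1 to 4. In vehicle libraries 2 to 4 they held 331, 281 and 23.5 CPM. Fscn1, which bundles actin in cell protrusions, stood at 129 ± 36.5 CPM (SD, n = 4) and 357 ± 155 CPM (SD, n = 3), with a log2 difference of -1.41. This was -0.75 in libraries 3 and 4 alone. In blood cells Fscn1 stood at 1072, 189 and 251 CPM in vehicle libraries 2 to 4. S100a4, a calcium-binding protein, Raph1, which regulates actin at the leading edge, and Myzap, a junction-associated protein, were likewise lower in every PBMCsec library, with log2 differences of -0.98, -0.92 and -0.90. S100a4 and Myzap were mostly lymphatic (322 and 175 CPM in lymphatic against 73.7 and 48.4 CPM in blood cells). In vehicle library 4, which had the lowest lymphatic share, they stood at 350.0 and 198 CPM. Within lymphatic cells their log2 differences were -0.61 and -0.84, and the groups overlapped. There S100a4 stood at 317 CPM in PBMCsec library 2 and 239 CPM in vehicle library 2, and Myzap at 204 and 172 CPM. The part of the lymphatic share in these differences was not tested.

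Hspb1 (chr5:135887919-135889563), which encodes the small heat shock protein HSP27, stood at 4788, 3117, 3747 and 2378 CPM in PBMCsec libraries 1 to 4 and 273, 1899 and 712 CPM in vehicle libraries 2 to 4. All PBMCsec libraries were above all vehicle libraries, and the vehicle libraries differed among themselves more than the PBMCsec libraries did in proportion (log2 difference 1.86 ± 0.50, SE). The difference was 1.42 without vehicle library 2 and 2.81 without vehicle library 3. Hspb1 was higher in blood than in lymphatic cells (2955 against 501 CPM). The log2 difference was 1.64 in blood cells alone and 1.84 in lymphatic cells alone, but the groups overlapped within each class. Lymphatic cells held 217, 340, 2710 and 248 CPM in PBMCsec libraries 1 to 4. In vehicle libraries 2 to 4 they held 172, 210 and 353 CPM. Blood cells held 2783 CPM in PBMCsec library 3 and 3104 CPM in vehicle library 3. Lifr, a receptor subunit for cytokines of the interleukin-6 family, and Cd34, a sialomucin of blood capillaries, were higher in every PBMCsec library, with log2 differences of 1.83 and 1.18. Both were mainly blood genes (Cd34 at 693 CPM in blood and 14.0 CPM in lymphatic cells). In blood cells alone their log2 differences were 1.98 and 0.86, but the groups overlapped there. Lifr stood at 148 CPM in PBMCsec library 4 and 170 CPM in vehicle library 3. Cd34 stood at 530 CPM in PBMCsec library 1 and 625 CPM in vehicle library 3. Pnp, of purine salvage, and Clic1, a chloride channel protein, had log2 differences of 0.75 and 0.76, and values of 0.73 and 0.63 in blood and 0.76 and 0.76 in lymphatic cells alone.

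**Figure D5:**
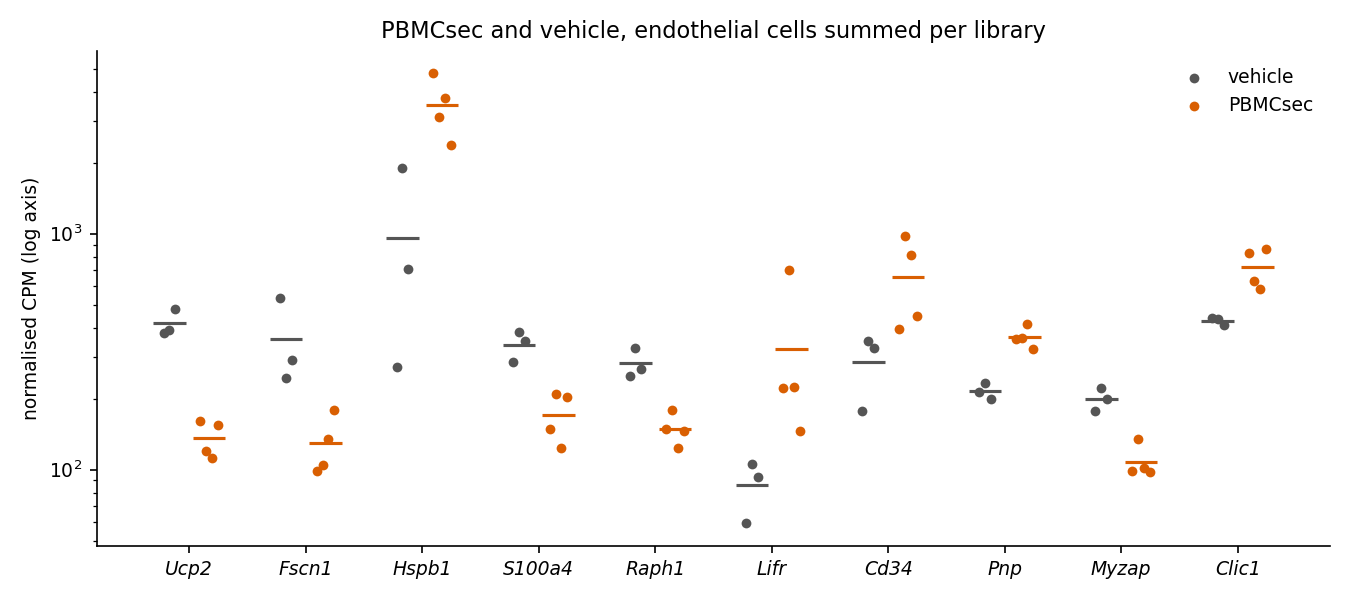
Normalised CPM on a log axis for the 10 genes with the smallest unadjusted p among those whose groups did not overlap, with 1 point per library (grey, 3 vehicle; orange, 4 PBMCsec) and lines for group means. Ucp2, Fscn1, S100a4, Raph1 and Myzap are lower and Hspb1, Lifr, Cd34, Pnp and Clic1 higher in all PBMCsec libraries, and none of the 10 passed the adjusted test.

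Stress and immediate early genes were the list with the most members on 1 side. Of 18 genes tested, 16 were higher and 2 lower after PBMCsec, 3 of the higher ones at an unadjusted p below 0.05, and the median log2 difference was 0.82, beside 0.01 over all genes tested. Over all 2342 genes tested, the split to set beside this list and those below was 1211 higher and 1131 lower. Hspa1b, an inducible HSP70 gene, stood at 2542, 1424, 1260 and 422 CPM in PBMCsec libraries 1 to 4 and 297, 488 and 362 CPM in vehicle libraries 2 to 4. PBMCsec library 4 fell among the vehicle libraries. Hspa1a, its near-identical copy, ranged from 519 to 3998 CPM and from 11.9 to 827 CPM, and Hsp90aa1 from 300.2 to 1024 CPM and from 237 to 350 CPM. Reads shared by Hspa1a and Hspa1b make the split between them uncertain. The median of the list was 0.62 in blood cells alone and 0.61 in lymphatic cells alone, 0.34 without PBMCsec library 3 and 1.91 without vehicle library 3.

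Of 13 lymphatic genes tested besides those of the rule, 4 were higher and 9 lower after PBMCsec, with a median log2 difference of -0.33, which was -0.11 without vehicle library 2. Reln (557 ± 146 against 916 ± 387 CPM, log2 difference -0.71) and Flt4 (log2 difference -0.63) were examples, and in lymphatic cells alone the differences were -0.47 and -0.40. Of 10 capillary and lipid genes, 7 were higher and 3 lower, with a median of 0.45, which was 0.17 in blood cells alone and 0.18 without vehicle library 2. Fabp4 stood at 10970 ± 4388 CPM (SD, n = 4) and 5777 ± 4552 CPM (SD, n = 3), and Aqp1, a water channel, ranged from 259 to 6250 CPM among PBMCsec libraries. The groups overlapped for each of these genes.

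Of 8 leukocyte adhesion genes tested, 6 were higher and 2 lower, with a median log2 difference of 0.64, and Cd34 was the member with an unadjusted p below 0.05. Selp stood at 24.7, 719, 1271 and 146 CPM in PBMCsec libraries 1 to 4 and at 0, 371 and 23.3 CPM in vehicle libraries 2 to 4. The values were widely spread and overlapped, as did those of Icam1 (130 to 776 CPM and 93.3 to 265 CPM). Of 10 venous genes, 7 were higher and 3 lower, with a median of 0.52, and the median was -0.13 in libraries 3 and 4 alone. Of 12 arterial genes, 5 were higher and 7 lower with a median of -0.05, and Dll4, the Notch ligand of arteries and tip cells, ranged from 15 to 169 CPM and from 74.3 to 225 CPM.

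The signalling lists had the following counts. Of the VEGF genes besides those of the rule, 1 was higher and 2 lower (median -0.18), of the angiopoietin and Tie genes 1 and 3 (median -0.16), of the Notch genes 2 and 3 (median -0.01), and of the BMP and TGF-β genes 3 and 5 (median -0.16). The Notch median was -0.81 with the replicate block by library number and -0.49 without PBMCsec library 1. Further lists were junction genes (5 higher, 4 lower, median 0.09), transcription factors (7 and 5, median 0.09), caveolar genes (4 and 3, median 0.12) and basement membrane genes (10 and 3, median 0.21). Haemostasis genes (7 and 1) had a median of 0.49, which was 0.11 without vehicle library 3, 0.15 without PBMCsec library 2 and 0.81 without vehicle library 4. Lamb1, a laminin chain, lay lower in every PBMCsec library (282 ± 48.6 against 433 ± 110 CPM, log2 difference -0.61). Its difference was -0.25 in libraries 3 and 4 alone and -0.10 in lymphatic cells alone. In blood cells Lamb1 stood at 942, 151 and 206 CPM in vehicle libraries 2 to 4. Of the 5 sprouting genes tested, 1 was higher and 4 lower. Their median was -0.61, but -0.04 without vehicle library 2 and 0.09 in libraries 3 and 4 alone, with Aplnr, the apelin receptor, higher at 258 ± 185 against 108 ± 45.9 CPM. The interferon and MHC class I genes stood at 10 higher and 6 lower (median 0.08). Psmb8, a subunit of the immunoproteasome, was the member with an unadjusted p below 0.05, at 716, 435, 293 and 325 CPM in PBMCsec libraries 1 to 4 and 261, 265 and 210 CPM in vehicle libraries 2 to 4. Of the 4 MHC class II genes 1 passed the filter on low counts, and of 13 cell cycle genes none did. Of the pericyte genes 4 passed it, 3 higher and 1 lower. Their median of 1.28 was above that of every endothelial list, and fell to 0.16 when vehicle library 2, and to 0.31 when PBMCsec library 3, was left out. The part of pericyte RNA in the endothelial results was not tested. Rgs5, a pericyte gene, was the widest of these, ranging from 0 to 2332 CPM among PBMCsec and from 0 to 607 CPM among vehicle libraries.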

How the data were processed

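Single cells of mouse dorsal skin were profiled with 10x Genomics 3′ chemistry, and the authors deposited raw UMI counts of 31053 genes per barcode after alignment to mm10 with Cell Ranger. The submitters' processing notes give version 3.0.2. The counts carry no normalization. The members, the gene lists and the tests were chosen with earlier results of these data known.

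Cells were filtered and selected as stated above, and 3 genes (Gm42418, Gm17056 and Gm26917) were removed. Of 164 cells with at least 3 markers, 5 had a Ptprc UMI and 16 others had collagens at 1% or more. Of 240 barcodes that met the marker rule before the quality filter, 44 were over 10% mitochondrial UMIs and 48 over 4000 genes. Total UMIs per library ranged from 14753926 to 37880651, and endothelial UMIs from 45236 to 165131. Libraries with at least 10 endothelial cells were summed and tested with edgeR 4.0.16 (R 4.3.3; TMM, filterByExpr, Benjamini-Hochberg adjustment, two-sided), without the 3 collagen genes and 5 keratinocyte genes. Adjusted p-values are from this test. Blood or lymphatic cells alone were compared in the same libraries, with no minimum number of cells within the class. PBMCsec library 2 held 4 lymphatic and 6 blood cells, and vehicle library 2 held 5 blood cells. DESeq2 1.42.0 was an alternative. Shares were compared by exact permutation over libraries in Python 3.11.15. The labels do not say whether each library is a separate animal, and p-values then measure only the spread between libraries, which may be technical. Equal library numbers were checked for pairing: deviations from the group mean correlated at 0.168, 0.317 and 0.233 over 2342 genes for numbers 2, 3 and 4. For unequal numbers the correlations lay between -0.242 and 0.114, and PBMCsec library 1 has no partner in the gene test. The numbers were therefore taken to pair the libraries, but only in an alternative setting, the replicate block. The main tests of genes and shares are unpaired. With the block, edgeR gave 88 genes higher and 60 lower at an unadjusted p below 0.05, and 0 called. Positions are from GENCODE M21 on GRCm38, and all 303 listed genes were found.

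Named genes were the rule's genes, the 25 genes of highest ratio to other cells and the 15 of highest ratio each way between lymphatic and blood cells (both detected in at least 25% of cells, without test), and, since fewer than 5 genes were called, the 10 with the smallest unadjusted p whose groups did not overlap, and list members with at least 50 CPM. Lists and groups without a test are described by counts and medians. The edgeR script was tested on simulated data, where it recovered 31% of genes changed 2-fold and 93% of those changed 4-fold. A count of 0 called genes thus does not show that no gene differed. Alternatives were another normalization, no filter on low counts, other limits on cells, markers and mitochondrial UMIs, blood cells alone, pairs of libraries and each library left out.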

Additional observations from a re-analysis of the deposited data

Results flagged for a closer look

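Of 31 sets of 4 PBMCsec or vehicle libraries looked at (the shares and the named genes), 2 held a library whose gap to its neighbour took up more of the group's range than Dixon's 95% limit allows, where chance marks about 1 in 20. Lifr stood at 704 CPM in PBMCsec library 2 against 146 to 225 CPM in the other PBMCsec libraries, and without that library its log2 difference was 1.15 in place of 1.83. Myzap stood at 135 CPM in PBMCsec library 2 against 97.4 to 101 CPM in the others. This library held 10 endothelial cells, the fewest of those tested.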

How the results depend on the processing

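In no setting did either share pass its test, but several settings could not reach p below 0.05 whatever the values. The smallest p possible in the exact test was 0.333 in libraries 3 and 4 alone. For the lymphatic share it was 0.1 without a PBMCsec library or at 5% mitochondrial UMIs. Without vehicle library 2, 3 or 4 it was 0.0667 for that share. Those settings cannot show whether the share differs. The difference in the share of endothelial cells turned to 0.0742 percentage points in libraries 3 and 4 alone, and ranged from -0.785 to 0.139 as single libraries were left out. That of the lymphatic share ranged from -19.5 to -4.14 percentage points, and was -18.3 (exact p = 0.0857) with cells thinned to 2000 UMIs. The difference in the endothelial share was -0.999 at a limit of 5% mitochondrial UMIs. The replicate block by library number gave -0.453 (p = 0.5) and -10.8 (p = 0.5) percentage points by exact sign flips. The smallest p possible in these sign flips was 0.125 and 0.25, so neither could pass. In edgeR the block gave 0 called genes and changed no call. Leaving out any single library, blood cells alone, at least 4 markers and DESeq2 also gave 0 called genes. The count was 75 (43 higher, 32 lower) without the filter on low counts, 34 in libraries 1 and 2 alone, where vehicle is 1 library assumed to vary like the others, and 4 with a limit of 5% mitochondrial UMIs (Col6a1, Hspb1, Meg3 and Zeb2, all higher). The cause was not tested. Lymphatic cells alone, a setting chosen after seeing the data, gave 0.

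As single libraries were left out, the log2 difference of Mmrn1 (-0.33 with all) ranged from -0.69 to 0.016 (without vehicle library 2) and that of Vwf (0.62 with all) from -0.62 (without PBMCsec library 2) to 0.96. Vwf was also at -0.63 in libraries 3 and 4, which are those with at least 20 endothelial cells. Libraries held 5 to 27 endothelial cells.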
